A study of Mus musculus with 4 samples.

Results

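Potassium channel and transient receptor potential (TRP) channel genes were followed in cultured mouse mammary tumour cells. Genes were taken by symbol: Kcn followed by letters and digits for the potassium channels, and Trpa, Trpc, Trpm or Trpv followed by digits and any further letters for the TRP family. The rule matched 115 of the 23361 genes in the deposited table, 92 with potassium channel symbols and 23 with TRP symbols. Of these, 32 reached 0.5 FPKM (fragments per kilobase of transcript, scaled to sequencing depth) in at least 1 library and are described by their level in each library, apart from 1 that is counted only. The other 83 stayed under that level, 55 with some fragments and 28 with none in any library. One of the 32, Trpc4ap, shares the symbol pattern but encodes a TRPC4-associated adaptor protein and not a channel subunit, so 31 channel genes were above the threshold.

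The cells were mammary tumour cells of the C3HeB/FeJ strain, derived from the Chaos3 model, a mouse with a hypomorphic Mcm4 allele that destabilises replication. The 2 groups of 2 libraries were compared. The libraries labelled Low came from the parental line 23116 MT, whose label is low Arid1a. The libraries labelled High came from the add-back clones AB-C1 and AB-C2, which had been transduced with a lentiviral vector for expression of Arid1a, a subunit of the SWI/SNF chromatin remodelling complex. Each High library is therefore a single clone, the labels name no empty-vector clone, and the promoter of the vector is not given in the sources used here. Libraries are numbered 1 and 2 within a group as names only: which numbered High library is AB-C1 was not known, and the labels do not say whether the Low libraries came from separate cultures, so p-values measure the spread between these libraries, which may be technical. The comparison asks how expression differs between cells with and without added Arid1a.

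Potassium channels let potassium ions leave or enter the cell along their gradient and thereby set the resting membrane potential, end electrical spikes and take part in control of cell volume and of the cell cycle. They fall into voltage-gated channels with their auxiliary subunits, channels opened by intracellular calcium or sodium, inward rectifiers, and two-pore-domain channels that carry background currents. TRP channels are mostly calcium-permeable cation channels gated by chemical irritants, temperature, osmotic stretch, lipids or phospholipase C signalling, and in epithelia some of them carry calcium and magnesium transport.

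The libraries held between 13889856 and 28110812 fragments assigned to genes. Arid1a itself was at 10.2 and 11.7 FPKM in the libraries labelled Low and at 6.16 and 7.22 FPKM in those labelled High, on 1119, 2574, 853 and 1432 fragments. Both libraries labelled High were thus below both labelled Low, against the direction of the labels, and whether fragments of the vector transcript were counted as Arid1a is not given in the sources used here. Directions below are those of the libraries as labelled. Each of the 9 luminal markers reached 0.5 FPKM in at least 1 library, with Elf5 at 0 in High library 2. They summed to 1035 and 730 FPKM in the libraries labelled Low and 540 and 1560 FPKM in those labelled High. The basal list was carried by Krt14, at 663 and 418 FPKM in the libraries labelled Low and 859 and 1792 FPKM in those labelled High, and by Acta2, at 553 and 483 FPKM against 9.45 and 3.59 FPKM. Other basal markers were low, with Krt5 at or below 0.505 FPKM, Oxtr at or below 0.132 FPKM and Myh11 at or below 0.142 FPKM. Trp63 ranged from 0.590 to 5.49 FPKM and Krt17 from 0.440 to 1.28 FPKM. Fibroblast markers summed to 1314 and 1170 FPKM in the libraries labelled Low and to 282 and 99.4 FPKM in those labelled High, with Lum at 0. The collagens and Pdgfrb made up most of that sum in both libraries labelled Low and in High library 2. In High library 1 the largest member was Dcn, at 2.48 and 3.40 FPKM against 117.5 and 11.5 FPKM. Pdgfra was at 12.4 and 15.2 FPKM against 36.3 and 4.12 FPKM. Smooth muscle markers, mostly Acta2, summed to 578 and 504 FPKM against 19.0 and 5.91 FPKM. Endothelial, T or NK cell and adipocyte markers stayed below 0.5 FPKM each. The macrophage, glia and skeletal muscle lists each had 2 markers that reached 0.5 FPKM in at least 1 library. Macrophage markers, mostly Csf1r, summed to 3.296 and 3.48 FPKM against 7.23 and 7.99 FPKM. Glial markers summed to 1.21 and 1.38 FPKM against 1.88 and 1.11 FPKM. Skeletal muscle markers summed to 1.197 and 0.935 FPKM against 6.07 and 2.31 FPKM. Tnnt3 was at 4.42 FPKM in High library 1 and below 0.5 FPKM elsewhere. In these bulk libraries, fewer cells of a type and less RNA per cell cannot be told apart.

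Upstream sequences are shown for 4 genes taken as examples of the differences below. Kcnh1 was called lower in the libraries labelled High. Kcna6, Kcnk5 and Kcnn4 differed between the 2 libraries labelled High in 3 different ways relative to the Low pair. Whether these sequences bear on the expression differences was not tested. Each is the stretch before the transcription start, 5′ to 3′ on the strand of the gene, from RefSeq promoters on GRCm38.p6. Of the 250 bases upstream, 3 next to the start of Kcnh1 and 27 next to that of Kcnk5 were left out. An exon of a protein-coding gene in GENCODE overlaps the window there. The Kcna6 window overlaps exon sequence of Gm26673. The capitals mark the GC box, GGGCGG or its complement CCGCCC.
Kcnh1 (chr1:192190527-192190773, plus strand): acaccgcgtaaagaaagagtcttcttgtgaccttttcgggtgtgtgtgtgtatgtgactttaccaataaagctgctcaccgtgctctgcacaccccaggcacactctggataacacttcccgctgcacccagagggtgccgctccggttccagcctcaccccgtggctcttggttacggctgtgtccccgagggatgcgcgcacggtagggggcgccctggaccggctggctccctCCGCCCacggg
Kcna6 (chr6:126740675-126740924, minus strand): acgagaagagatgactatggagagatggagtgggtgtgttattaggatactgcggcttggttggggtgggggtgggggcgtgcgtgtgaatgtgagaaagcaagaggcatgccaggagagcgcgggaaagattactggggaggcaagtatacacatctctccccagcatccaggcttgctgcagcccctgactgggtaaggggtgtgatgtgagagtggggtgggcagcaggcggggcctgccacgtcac
Kcnk5 (chr14:20181810-20182032, minus strand): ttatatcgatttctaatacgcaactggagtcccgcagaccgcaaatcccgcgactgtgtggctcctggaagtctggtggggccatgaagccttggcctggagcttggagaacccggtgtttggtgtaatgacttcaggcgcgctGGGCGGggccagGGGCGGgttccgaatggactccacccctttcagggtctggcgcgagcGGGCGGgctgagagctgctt
Kcnn4 (chr7:24370013-24370262, plus strand): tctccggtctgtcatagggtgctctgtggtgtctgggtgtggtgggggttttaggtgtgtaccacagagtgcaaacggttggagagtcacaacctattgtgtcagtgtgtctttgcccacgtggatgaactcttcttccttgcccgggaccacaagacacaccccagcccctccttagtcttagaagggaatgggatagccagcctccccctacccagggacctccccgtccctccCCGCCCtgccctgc
These windows held 1, 0, 3 and 1 GC boxes, respectively, whereas 32.7% of 32851 RefSeq promoter windows of 250 bases held at least 1. Neither the AP-1 motif TGANTCA nor the TATA motif TATAAA, searched on both strands, occurred in the 4 windows, and they were present in 6.75% and 12.4% of all windows. GC content over the full windows was 62.0%, 58.8%, 62.8% and 58.8%, above the median of 52.4% for all windows. The Kcnh1 and Kcnk5 windows held 17 and 19 CpG dinucleotides and those of Kcna6 and Kcnn4 held 8 and 6, beside a median of 6. Of the 32 genes, 24 matched an entry in the promoter table. The genes without an entry included Kcnj14, Trpa1, Trpm4, Kcnd1, Kcnq1, Kcng1 and Kcnab3.

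Most of the 32 genes were low. At 1 FPKM or more in some library there were 24, and at 10 FPKM or more there were 5: Trpc4ap, Trpm7, Trpv4, Kcnn4 and Kcnk1. The libraries labelled Low each had 26 of the 32 at or above 0.5 FPKM, and those labelled High had 21 and 18. The same level chose the 32 genes, and among all genes 12033 and 11996 genes reached it in the libraries labelled Low and 12215 and 12009 in those labelled High. Summed over channel genes without Trpc4ap, levels were 95.4 and 100.3 FPKM in the libraries labelled Low and 114.6 and 122.0 FPKM in those labelled High. The higher sum in High library 2 rested on Kcnn4 alone, at 12.1 and 8.99 FPKM against 9.43 and 37.6 FPKM. The choice of threshold matters at its edge, where Kcnj14 peaked at 0.511 FPKM and Kcng1 at 0.552 FPKM just inside, and Kcnn2 at 0.493, Kcnn3 at 0.426 and Trpc6 at 0.406 FPKM just outside. At 0.25 FPKM the same rule would keep 45 genes.

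**Figure D1:**
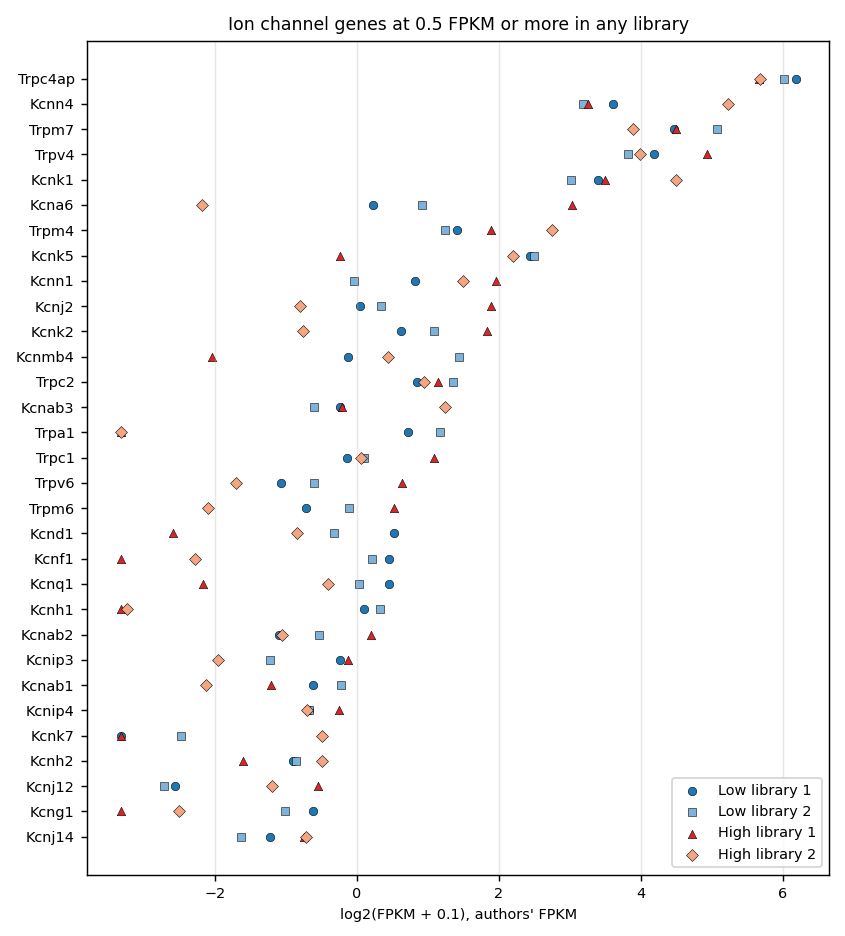
Level of 31 of the 32 genes as log2(FPKM + 0.1), with 1 point per library and genes ordered by their highest level. Trpc4ap is at the top, Trpa1 is at 0 FPKM (the left edge) in both libraries labelled High, and Kcna6 spans 0.121 to 8.12 FPKM.

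TRP channels gave the largest summed level in every library, at 48.8 and 58.1 FPKM in those labelled Low and 64.1 and 41.0 FPKM in those labelled High. Voltage-gated pore subunits, the largest class with 40 genes, summed to 8.57 and 7.82 FPKM against 11.1 and 4.96 FPKM. In both classes the sums of the libraries labelled High lay on either side of the Low pair. The higher voltage-gated sum in High library 1 came from Kcna6, at 1.07 and 1.80 FPKM against 8.12 and 0.121 FPKM. Trpm7 and Trpv4 made up most of the TRP sum in every library. Calcium- and sodium-activated channels summed to 14.2, 10.8 and 13.8 FPKM in the first 3 libraries (Low 1, Low 2 and High 1) and to 40.6 FPKM in High library 2. High library 2 was also the highest for two-pore-domain channels, at 28.4 FPKM beside 18.1, 16.1 and 16.3 FPKM in the other libraries. Inward rectifiers were at 1.74 and 1.75 FPKM against 5.13 and 1.92 FPKM, with High library 1 apart from the other libraries. A single gene made up most of each of these high sums. In High library 2 Kcnn4 was at 37.6 FPKM and Kcnk1 at 22.5 FPKM, and in High library 1 Kcnj2 was at 3.61 FPKM. BK beta subunits were at 0.909 and 2.71 FPKM against 0.143 and 1.41 FPKM. Auxiliary subunits of the voltage-gated channels varied least, at 3.02 and 3.02 FPKM against 4.004 and 3.68 FPKM.

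**Figure D2:**
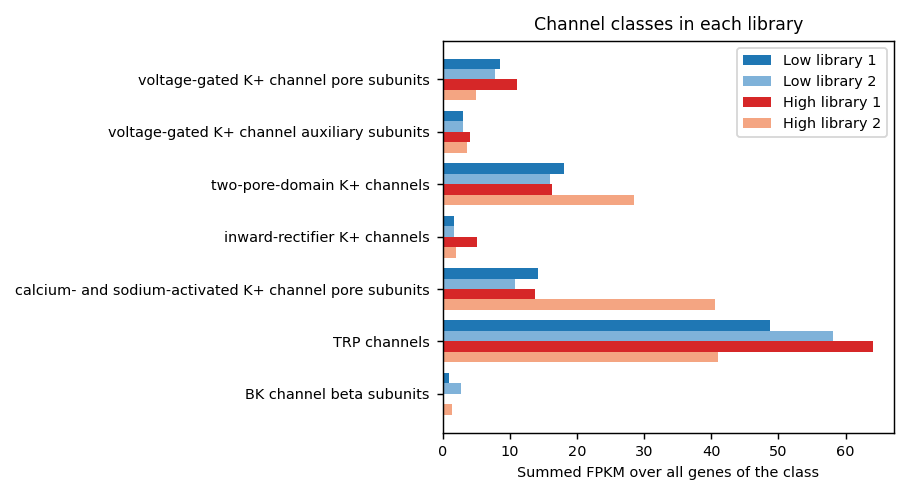
Summed FPKM of each channel class in each of the 4 libraries, with 1 bar per library starting at 0. Calcium- and sodium-activated channels stand out in High library 2 at 40.6 FPKM, of which Kcnn4 gave 37.6 FPKM. TRP channels have the longest bar in all 4 libraries.

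Between the libraries labelled High and those labelled Low, edgeR called 2 of the 37 channel genes tested lower (1.33% of all genes tested were) and 0 higher (1.14% of all genes were). Trpa1, the irritant-gated channel of sensory neurons, had 1.55 and 2.15 FPKM in the libraries labelled Low and none in those labelled High. Kcnh1, an ether-à-go-go voltage-gated channel best known from brain and from tumour cells, had 0.968 and 1.16 FPKM against 0 and 0.00585 FPKM. The groups did not overlap for either gene. Both genes reached 0.5 FPKM and passed the filter on low counts through the Low pair only. That filter asks for enough fragments in 2 libraries. Kcnma1, with 0 and 2 fragments in the libraries labelled Low and 26 and 0 in those labelled High, did not pass it. It could therefore not be called in this test.

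Trpa1 (chromosome 1, 14872648 to 14918862 on the minus strand) rested on 86 and 240 fragments in the libraries labelled Low and 0 and 0 in those labelled High. With the High pair at 0, taken as 3 fragments over the group, it was at least 110.6-fold lower (adjusted p = 0.00765, edgeR quasi-likelihood test with Benjamini-Hochberg adjustment over 12987 genes). Its level was 1.85 ± 0.43 FPKM (SD, n = 2) in the Low pair. Kcnh1 (chromosome 1, 192190774 to 192510159 on the plus strand) had 91 and 219 fragments in the libraries labelled Low and 0 and 1 in those labelled High. The ratio of the groups, scaled by library size, was 315.6 with a 95% exact interval of 56.2 to 12500 that covers counting error only. The fitted log2 fold change was -7.96 ± 0.89 (SE), with an edgeR adjusted p of 0.00738. Its level was 1.06 ± 0.14 FPKM (SD, n = 2) in the Low pair and 0.0029 ± 0.0041 FPKM (SD, n = 2) in the High pair.

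The calls ended when either Low library was left out, where edgeR adjusted p for Trpa1 was 0.445 and 0.517 and for Kcnh1 0.427 and 0.491. In those fits no gene in the table was called, and the log2 fold change of Kcnh1 was -8.13 and -7.81, close to that with all libraries; Trpa1 still had 240 or 86 fragments against 0. Over 14 alternative settings Trpa1 was called in 11 (adjusted p from 4.26e-17 to 0.517) and Kcnh1 in 9 (2.80e-15 to 0.491). These include a block on the library number, which kept both calls. The opposite pairing of the libraries, added after seeing the data, lost both (adjusted p = 0.0671 for Trpa1 and 0.0557 for Kcnh1), and since the numbers are names only neither pairing has a claim over the other. Neuronal markers moved the same way for 1 of the 6 listed: Stmn2 was at 3.99 and 2.86 FPKM against 0 and 0.0236 FPKM, while Map2 was at 1.56 and 1.85 against 2.21 and 2.68 FPKM. The other 4 neuronal markers, Rbfox3, Snap25, Syt1 and Nefl, stayed at or below 0.115 FPKM, and the list summed to 5.57 and 4.75 FPKM against 2.32 and 2.90 FPKM. The fibroblast and smooth muscle sums given above were also lower in the libraries labelled High, and their part in these results was not tested.

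After the filter on low counts, 37 of the 115 genes could be tested, 31 of the 32 above the FPKM threshold and 6 below it. The 2 called genes among the 37 stand beside 2.47% of all genes called in either direction. At an unadjusted p under 0.05 there were 10 of 37, against 18.1% of all genes. DESeq2 called 4 of 87 (Kcnf1, Kcnh1, Trpa1 and Trpc6), all lower, with 6.97% of all genes called, and limma-voom called 3 of 37 (Kcnh1, Trpa1 and Trpc6), with 2.47% of all genes called. For DESeq2, here and below, shares are over genes with any fragments. Genes to which it gave no adjusted p are among them and count as not called. Shares over genes with an adjusted p would be larger. Trpc6, a diacylglycerol-gated channel, stayed under 0.5 FPKM and had 17 and 28 fragments in the libraries labelled Low and 0 in both labelled High, at least 15.3-fold lower (edgeR adjusted p = 0.0694).

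The median log2 fold change of the 37 was 0.14, with 19 above 0 and 18 below, beside 0.03 for all genes tested. The libraries of the 2 groups did not overlap in CPM (counts scaled to library size) for 20 of the 37, 9 with both High-labelled libraries above and 11 with both below. The shares of all genes were 51.0% in all, 25.9% above and 25.1% below, so the channel genes lay near the background. A permutation test of 2 libraries against 2 cannot give an exact two-sided p below 0.333.

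**Figure D3:**
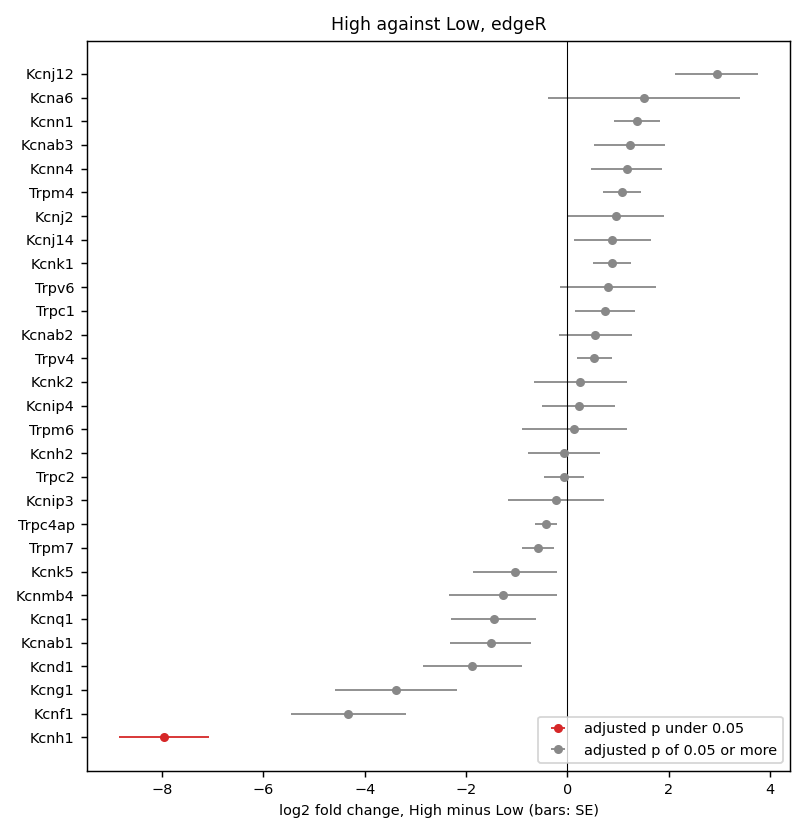
Log2 fold change of tested channel genes above 0.5 FPKM, libraries labelled High against Low, with 1 SE as bars and genes at an adjusted p under 0.05 in red. Kcnh1 lies at -7.96 and Kcna6 has the widest bar, an SE of 1.89; Trpa1, at 0 in both libraries labelled High, and Kcnk7, not tested, are not drawn.

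Voltage-gated pore subunits form the potassium-selective pore that opens on depolarisation. Of the 40 genes, 8 exceeded 0.5 FPKM and 13 had no fragments. Kcna6, a delayed rectifier of the shaker type (chromosome 6, 126708329 to 126740674, minus strand), reached the highest level, at 1.07 and 1.80 FPKM in the libraries labelled Low and 8.12 and 0.121 FPKM in those labelled High. High library 1 was above both Low libraries and High library 2 below both, so the group difference carried a large error (log2 fold change 1.52 ± 1.89 SE, edgeR adjusted p = 0.744) and turned negative in limma-voom (-0.92). The gene had 83 and 279 fragments in the Low pair and 795 and 17 in the High pair, and 39.6% of its exonic bases lie opposite exons of Gm26673 on the other strand; the strand setting of the counting is not given in the sources used here.

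Kcnf1 and Kcng1, silent subunits that modify other voltage-gated channels, were lower in both libraries labelled High without passing the test. Kcnf1 was at 1.27 and 1.06 FPKM against 0 and 0.105 FPKM (edgeR adjusted p = 0.121). Kcng1 was at 0.552 and 0.395 FPKM against 0 and 0.0760 FPKM. Neither pair overlapped. Kcnd1, an A-type channel, was at 1.33 and 0.704 FPKM against 0.0656 and 0.458 FPKM. Kcnq1, the pore of the slow delayed rectifier and of epithelial potassium recycling, was at 1.27 and 0.925 FPKM against 0.122 and 0.654 FPKM. For both, the groups did not overlap but High library 1 was well below High library 2. Kcnh2, the cardiac rapid delayed rectifier, was at 0.436 and 0.452 FPKM against 0.229 and 0.610 FPKM, on either side of the Low pair.

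Auxiliary subunits bind the voltage-gated pores and alter their trafficking and inactivation. All 11 had fragments and 5 exceeded 0.5 FPKM. Kcnab3, a cytoplasmic beta subunit (chromosome 11, 69326258 to 69333042, plus strand), was the highest at 0.750 and 0.560 FPKM in the libraries labelled Low and 0.764 and 2.27 FPKM in those labelled High. High library 2 stood above the other 3 libraries (log2 fold change 1.23 ± 0.70 SE, edgeR adjusted p = 0.413), on 24, 36, 31 and 132 fragments. Kcnab1, another beta subunit, was lower in both libraries labelled High at 0.331 and 0.130 FPKM against 0.551 and 0.757 FPKM. Kcnab2 was at 0.369 and 0.595 FPKM against 1.04 and 0.383 FPKM. Kcnip3 and Kcnip4 encode calcium-binding partners of the A-type channels. Kcnip3 was at 0.750 and 0.331 FPKM against 0.819 and 0.159 FPKM, and Kcnip4 at 0.529 and 0.526 FPKM against 0.737 and 0.515 FPKM. In these last 3 genes the libraries labelled High did not separate from the Low pair.

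Calcium-activated channels open when intracellular calcium rises, and the Kcnn channels sense it through bound calmodulin. Kcnn4, the intermediate-conductance channel of epithelia, blood cells and many tumours (chromosome 7, 24370263 to 24386690, plus strand), was the most abundant potassium channel gene in 3 of the 4 libraries. It was at 12.1 and 8.99 FPKM in the libraries labelled Low and 9.43 and 37.6 FPKM in those labelled High, on 290, 433, 288 and 1639 fragments. High library 1 lay within the Low pair and High library 2 far above it (log2 fold change 1.17 ± 0.70 SE, edgeR adjusted p = 0.466). Kcnn1, a small-conductance channel, was at 1.67 and 0.871 FPKM against 3.78 and 2.72 FPKM. Both libraries labelled High were above both labelled Low, but the difference did not pass the test (adjusted p = 0.176). Of the large-conductance BK channel, only a beta subunit gene, Kcnmb4 (chromosome 10, 116417861 to 116473878, minus strand), exceeded 0.5 FPKM. The pore gene Kcnma1 was at 0 and 0.0157 FPKM in the libraries labelled Low and 0.257 and 0 FPKM in those labelled High. Kcnmb4 was at 0.818 and 2.62 FPKM against 0.143 and 1.25 FPKM, on 9, 58, 2 and 25 fragments (log2 fold change -1.27 ± 1.07 SE, edgeR adjusted p = 0.581). The groups overlapped, and 31.5% of its exonic bases lie opposite Kcnmb4os1 and Kcnmb4os2.

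Inward rectifiers pass potassium more easily into than out of the cell and hold the resting potential. Kcnj2, a strong rectifier of muscle and heart (chromosome 11, 111066164 to 111076821, plus strand), was at 0.932 and 1.17 FPKM in the libraries labelled Low and 3.61 and 0.475 FPKM in those labelled High. As with Kcna6, 1 library labelled High was above and the other below the Low pair (67, 169, 329 and 62 fragments, log2 fold change 0.96 ± 0.95 SE, edgeR adjusted p = 0.660). Kcnj12, a close relative, was at 0.0691 and 0.0516 FPKM against 0.586 and 0.338 FPKM. Kcnj14 was at 0.329 and 0.224 FPKM against 0.496 and 0.511 FPKM. Both genes were higher in both libraries labelled High and neither passed the test (edgeR adjusted p = 0.122 for Kcnj12 and 0.581 for Kcnj14).

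Two-pore-domain channels give the background leak current. Kcnk1, a weakly inward-rectifying member found in many epithelia (chromosome 8, 125995170 to 126030685, plus strand), was at 10.5 and 8.01 FPKM in the libraries labelled Low and 11.2 and 22.5 FPKM in those labelled High. Both libraries labelled High were above the Low pair, High library 1 only narrowly (302, 464, 411 and 1179 fragments, log2 fold change 0.88 ± 0.38 SE, edgeR adjusted p = 0.279). Kcnk5, which responds to extracellular alkalinity, was at 5.31 and 5.54 FPKM against 0.746 and 4.49 FPKM. Kcnk2, a stretch- and lipid-sensitive channel, was at 1.44 and 2.02 FPKM against 3.47 and 0.493 FPKM. In Kcnk5 only High library 1 lay far below the Low pair, and in Kcnk2 the 2 libraries labelled High lay on opposite sides of it. Kcnk7, a member without known current of its own, was at 0 and 0.0794 FPKM against 0 and 0.615 FPKM and had too few fragments (0, 2, 0 and 14) to be tested.

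Among TRP channels, Trpm7 was the most abundant in the libraries labelled Low and Trpv4 in those labelled High. Trpm7 encodes a ubiquitous magnesium- and calcium-permeable channel fused to a kinase (chromosome 2, 126791565 to 126876230, minus strand). Its level was 22.1 and 33.7 FPKM in the libraries labelled Low and 22.4 and 14.7 FPKM in those labelled High, on 2098, 6440, 2698 and 2542 fragments. The groups overlapped in FPKM (log2 fold change -0.58 ± 0.31 SE, edgeR adjusted p = 0.380). Trpm6, its relative in epithelial magnesium uptake, was at 0.509 and 0.824 FPKM against 1.34 and 0.134 FPKM. Trpm4, a calcium-activated channel for monovalent cations, was at 2.56 and 2.27 FPKM against 3.60 and 6.60 FPKM, higher in both libraries labelled High (adjusted p = 0.191).

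Trpv4, gated by osmotic swelling and warmth, was at 18.2 and 14.0 FPKM in the libraries labelled Low and 30.5 and 15.9 FPKM in those labelled High. Only High library 1 stood above the Low pair. Trpv6, the calcium-selective channel of absorbing epithelia, was at 0.375 and 0.560 FPKM against 1.46 and 0.206 FPKM. Trpc1, a widely expressed subunit of receptor-operated channels, was at 0.805 and 0.970 FPKM against 2.03 and 0.944 FPKM. Trpc2, the pheromone-signalling channel of the vomeronasal organ, was at 1.70 and 2.46 FPKM against 2.11 and 1.82 FPKM, overlapping throughout. All exonic bases of Trpc2 (100%) are shared on the same strand with Xndc1 and Xntrpc, so fragments of these genes cannot be assigned with certainty. Smaller parts of the exonic bases lie opposite other genes in Kcnk2 (12.2%), Kcnk1 (8.01%), Kcnip4 (7.36%), Kcnab3 (5.13%) and Kcnq1 (2.96%, opposite Kcnq1ot1), and also in Kcnab1, Kcnn1 and Trpc4ap.

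Trpc4ap, the adaptor protein matched by symbol alone (chromosome 2, 155634271 to 155692384, minus strand), was the most abundant of the 32, at 72.5 and 64.7 FPKM in the libraries labelled Low and 50.8 and 51.1 FPKM in those labelled High. It had 2975, 5329, 2644 and 3810 fragments. The High-labelled libraries were both lower and close to each other, and the difference did not pass the test (log2 fold change -0.42 ± 0.21 SE, edgeR adjusted p = 0.362).

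The 2 libraries labelled High, each from 1 clone, differed from each other in 10 of the 37 channel genes, where 10.9% of all genes tested were called. High library 1 was higher in Kcna6, Kcnj2, Kcnk2, Kcnk6, Trpm6 and Trpv6, and High library 2 in Kcnf1, Kcnk5, Kcnn3 and Kcnn4. These calls came from a fit of 3 groups, the Low pair and each High library alone, at an edgeR adjusted p under 0.05. The comparison was chosen after the data had been seen, has 1 residual degree of freedom and takes each lone library to vary like the Low pair. Of all genes, 6.47% were called higher and 4.46% lower in High library 1. DESeq2 called 7 of 87 (5.96% of all genes) and limma-voom 11 of 37 (11.7% of all genes).

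Kcna6 was 67.1-fold higher in High library 1 by fragments scaled to library size, with a 95% exact interval of 41.6 to 116 that covers counting error only, and an edgeR log2 fold change of 6.06 ± 0.54 (SE). Trpm6 was 10.04-fold higher there (6.33 to 16.7), Kcnj2 7.61-fold (5.79 to 10.2), Kcnk2 7.40-fold (5.21 to 10.8) and Trpv6 7.07-fold (3.94 to 13.6). In these 5 genes High library 1 was above both Low libraries and High library 2 below both. Kcnk5 was 6.0-fold higher in High library 2 (4.33 to 8.51) and Kcnn4 3.97-fold (3.50 to 4.51). These 2 genes reached their difference in different ways: High library 1 fell away from the Low pair in Kcnk5, and High library 2 rose away from it in Kcnn4. Kcnf1, with 0 fragments in High library 1 and 12 in High library 2, was at least 2.79-fold higher in the latter. Kcnk6 and Kcnn3 never reached 0.5 FPKM, with 21 and 1 fragments in the High pair for Kcnk6 and 0 and 44 for Kcnn3.

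**Figure D4:**
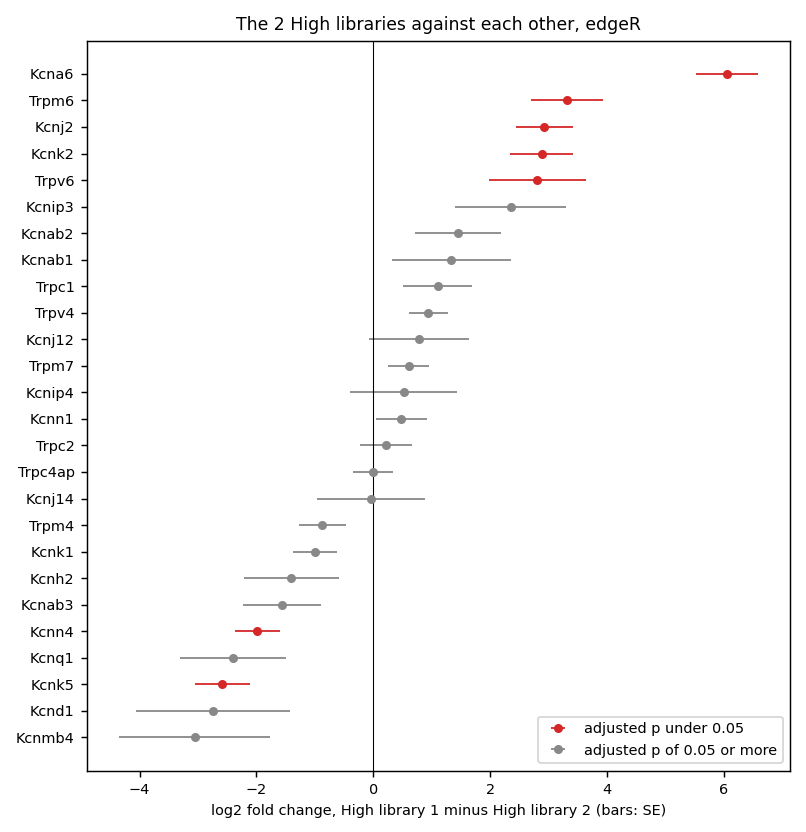
Log2 fold change of channel genes above 0.5 FPKM, High library 1 minus High library 2, with 1 SE as bars and genes at an adjusted p under 0.05 in red. Kcna6 lies farthest from 0, at 6.06, and Kcnn4 and Kcnk5 are the red points below 0; genes at 0 in either library (Kcnf1, Kcng1, Kcnh1, Kcnk7 and Trpa1) are not drawn.

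One library labelled High lay above both Low libraries and the other below both for 9 of the 37 genes (Kcna6, Kcnh2, Kcnip3, Kcnip4, Kcnj2, Kcnk2, Kcnk6, Trpm6 and Trpv6), where 16.8% of all genes did so. The spread between libraries, as the biological coefficient of variation, was 17.3% in the Low pair and 42.5% in the High pair. Epithelial and fibroblast marker sums also differed between the High libraries. Luminal markers summed to 540 FPKM in High library 1 and 1560 FPKM in High library 2, basal markers to 870 and 1803 FPKM, and fibroblast markers to 282 and 99.4 FPKM. Not every marker followed its sum. Luminal Elf5 was at 5.35 FPKM in High library 1 and 0 in High library 2, and Gata3 at 12.7 and 10.9 FPKM. Basal Acta2 was at 9.45 and 3.59 FPKM, and fibroblast Col1a2 at 2.90 and 60.7 FPKM. The part of these markers in the differences between these libraries was not tested.

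Set alone against the Low pair, each High library gave a longer list, in fits that take the lone library to vary like the Low pair. High library 1 was higher in 8 of 41 tested (Kcna6, Kcnj2, Kcnj12, Kcnk2, Kcnma1, Kcnn1, Trpv4 and Trpv6), with 10.6% of all genes called, and lower in 10 (Kcnd1, Kcnf1, Kcng1, Kcnh1, Kcnk5, Kcnmb4, Kcnn3, Kcnq1, Trpa1 and Trpc6), with 8.05% of all genes. High library 2 was higher in 6 of 45 tested (among them Kcnab3, Kcnk1, Kcnn1, Kcnn4 and Trpm4), with 8.76% of all genes, and lower in 9 (Kcna6, Kcnf1, Kcnh1, Kcnk2, Kcnk6, Trpa1, Trpc6, Trpm6 and Trpm7), with 7.53% of all genes. These 2 comparisons share the Low libraries.

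Genes that work with these channels were counted from 5 lists, of which 72 genes were tested and 3 called, beside 2.47% of all genes tested (1.14% higher and 1.33% lower). Among 13 tested partners and regulators of potassium channels, such as calmodulins, scaffolds and ubiquitin ligases, 1 was lower and 0 higher. Dlg4, a scaffold that clusters shaker-type potassium channels at synapses, was at 8.54 and 7.82 FPKM in the libraries labelled Low and 1.79 and 1.32 FPKM in those labelled High, 5.21-fold lower (log2 fold change -2.38 ± 0.33 SE, edgeR adjusted p = 0.0145). Among 23 tested pumps, cation-chloride cotransporters and chloride channels, 1 was higher and 1 lower. Lrrc8d, a subunit of the volume-regulated anion channel, was at 6.71 and 5.99 FPKM against 30.3 and 20.5 FPKM, 4.03-fold higher (log2 fold change 2.01 ± 0.27 SE, edgeR adjusted p = 0.0135). Slc12a7, a potassium-chloride cotransporter, was at 19.2 and 18.4 FPKM against 7.01 and 8.89 FPKM, 2.35-fold lower (log2 fold change -1.23 ± 0.23 SE, edgeR adjusted p = 0.0421). Over the 14 alternative settings Dlg4 and Lrrc8d were each called in 11 and Slc12a7 in 7. In each of these 3 genes the groups did not overlap in FPKM, and in CPM they did not overlap for 51.0% of all genes tested. Without Low library 1 or Low library 2, where no gene in the table was called, the log2 fold changes were -2.32 and -2.45 for Dlg4, 2.10 and 1.92 for Lrrc8d and -1.20 and -1.27 for Slc12a7.

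None of the 4 tested genes among other TRP superfamily channels, the mucolipins and polycystins, was called by edgeR, with 0 also at an unadjusted p under 0.05 and 0 by DESeq2 or limma-voom. Store-operated calcium entry and phospholipase C genes, which act upstream of TRP channels, gave 0 calls of 16 tested, with 4 at an unadjusted p under 0.05, 3 by DESeq2 and 0 by limma-voom. Voltage-gated calcium and sodium channels with cyclic-nucleotide-gated channels gave 0 of 16, with 2 at an unadjusted p under 0.05, 2 by DESeq2 and 0 by limma-voom. Over all genes these shares were 18.1% at an unadjusted p under 0.05, 6.97% by DESeq2 and 2.47% by limma-voom.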

How the data were processed

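RNA was measured in 4 libraries, prepared from 500 ng of DNase-treated total RNA with a directional kit (per the labels' protocols). The tools named upstream are cutadapt 1.5, TopHat2 2.0.13 and Cuffdiff 2.2.1 with build mm10, per the submitters' processing notes. The annotation and strand setting, which bear on overlapping genes, were not given in the sources used here, so overlaps with other genes are named in the results. The authors deposited, per the file headers, an estimated count of fragments for each gene and library, 99.18% of them whole within 1e-06, and FPKM, relative to transcript length and to sequencing depth after a scaling between libraries (divisors of 0.683 to 1.37, recovered from the values). All per-sample columns were matched to a sample (0 unmatched), and 11 genes had a failed status, none of them a channel gene.

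Estimated counts were rounded and tested with edgeR 4.0.16 in R 4.3.3 (TMM scaling, filterByExpr with a smallest count of 10, robust quasi-likelihood test with 2 residual degrees of freedom, Benjamini-Hochberg threshold 0.05 over 12987 genes). The two-sided test had 2 libraries a group and no covariate; SE is the log2 fold change divided by the root of F. FPKM was used as deposited to describe levels. Floors for a count of 0 were 3 fragments. Intervals are exact 95% intervals and cover counting error only. Alternatives used limma 3.58.1, DESeq2 1.42.0, other scalings, filters and pseudocounts, a replicate block and each library left out. Scripts were tested on simulated data.

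Coordinates are from GENCODE on GRCm38 and were matched by symbol. Genes above 0.5 FPKM are given per library, except 1 that is counted but not reported here. Genes called by edgeR and the highest of each role are described in full, as are called genes of the related lists. The genes and lists were chosen with earlier results of these data known. Trpc6, Kcnk6, Kcnn3, Kcnma1 and the comparison between the libraries labelled High were added after their values were seen.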

Additional observations from a re-analysis of the deposited data

How the results depend on the processing

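Calls between the labelled groups depended on the method. Channel genes here are those matched by the symbol rule, Trpc4ap included. DESeq2 called 4 channel genes lower, 635 genes higher and 527 lower in all, and 13 related genes, with a channel median of 0.55. Without the filter on low counts these were 4, 437, 377, 8 and 0.55. Limma on log2(FPKM + 1) and on log2(FPKM + 0.1) called 1 channel gene lower each. Limma on log2(FPKM + 1) without a filter called 0 channel genes, 0 genes in either direction and 0 related genes (16, 2465 and 16 at an unadjusted p under 0.05), and likewise 0 in either direction between the High libraries (25 channel genes and 3151 genes at an unadjusted p under 0.05). DESeq2 called 358 genes lower in High library 1 than in High library 2.

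The library numbers are names only, and no pairing of libraries across groups is known. Deviations of same-numbered libraries correlated at -0.14. The sign of this value turns if the numbers of either group are swapped, so it cannot decide whether libraries are paired. With the number as a replicate block, edgeR called 3 channel genes lower and 223 genes higher, with a channel median of -0.29. The crossed pairing, added after seeing the data, called 0 channel genes, 38 genes higher and 56 lower, and 0 related genes (12 channel genes, 2698 genes and 18 related genes at an unadjusted p under 0.05), with a channel median of -0.22. The channel median was -0.41 in limma-voom.

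Log2 fold changes of 3 genes turned negative. Kcna6 was at -0.92 in limma-voom, -0.15 on log2(FPKM + 0.1), -0.29 with the replicate block and -0.18 with the crossed block. Kcnk2 was at -0.57 in limma-voom, -0.071 on log2(FPKM + 1) with or without the filter, -0.31 on log2(FPKM + 0.1), -0.32 with the block and -0.29 with the crossed block. Trpm6 was at -0.88, -0.026, -0.37, -0.56 and -0.52 in the same order.

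With 1 library left out, channel genes higher ranged from 0 to 8 and lower from 0 to 10, all genes higher from 0 to 1406 and lower from 0 to 1069, related genes from 0 to 22, and the channel median from -0.51 to 0.53. Every count of 0 came from leaving out a Low library (without Low library 1, 970 genes and 4 channel genes had an unadjusted p under 0.05; without Low library 2, 800 and 3), with the lone library taken to vary like the other group. Fold changes that changed sign ranged from -3.56 to 2.48 for Kcna6, -0.35 to 1.08 for Kcnab2, -0.95 to 0.47 for Kcnh2, -1.78 to 0.57 for Kcnip3, -0.051 to 0.46 for Kcnip4, -1.14 to 1.77 for Kcnj2, -1.81 to 1.06 for Kcnk2, -0.14 to 1.86 for Kcnn4, -0.31 to 0.21 for Trpc2, -2.32 to 0.99 for Trpm6, -0.0083 to 0.93 for Trpv4 and -1.18 to 1.61 for Trpv6. The causes were not tested. Left-out rows were not run between the High libraries, where no residual degree of freedom would remain. Depth limits the low genes: 3 fragments correspond to 0.110 to 0.220 CPM.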
